A study of Saccharomyces cerevisiae with 8 samples.

Results

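This comparison set the temperature-sensitive yeast strain met30-6 (py283) against the strain PY1 after 1 h at 35 °C. It was chosen as an experiment, by its groups and not by measured values: 2 arrays of met30-6 and 2 of PY1, out of the 8 arrays of the series, across all 5449 named genes. Cells of *Saccharomyces cerevisiae* in all of these groups grew to mid-log phase in YPDA, a rich medium, at 25 °C, and the cultures compared here were then held at 35 °C, which the labels call non-permissive, before they were flash frozen. Total RNA was extracted with a RiboPure kit and labelled with biotin as cRNA in one cycle for Affymetrix expression arrays. The other 4 arrays, 2 of met30-6 and 2 of PY1 left at 25 °C, show which strain differences were there without the shift, and they share no array with the comparison at 35 °C. The genotype of PY1, any other allele of either strain and whether the strains share a background are not stated by the labels. Whether replicates were separate cultures is not given either. Each p-value thus weighs a difference only against the spread between arrays of the same group, which may be technical. The fit pools that spread over the 4 groups and moderates it across genes, so p-values at 35 °C and 25 °C are not independent.

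Met30 is an F-box protein, the part of an SCF ubiquitin ligase that picks its substrates. Its best known substrate is Met4, the activator that switches on genes for taking up sulfate and turning it into methionine, cysteine and S-adenosylmethionine, and Met4 binds DNA through the partners Cbf1, Met31 and Met32. When cells have enough sulfur, Met30 keeps Met4 inactive. Loss of Met30 function is known to stop cell division as well, and cells then arrest, many of them in G1.

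Levels are the deposited log2 values, 1 per array. Differences are met30-6 minus PY1 in log2 units, ± SE from limma, and a gene was called at a Benjamini-Hochberg adjusted p under 0.05 over all 5449 genes. The 8 arrays had medians of 10.97 to 11.09, and the r of replicate arrays over all probe sets was 0.993 to 0.995. Between the strains r was 0.916 to 0.926 at 35 °C and 0.978 to 0.979 at 25 °C. The highest value on any array was 14.51, and 724 genes had a mean of at least 13 in one of the groups at 35 °C. A group mean under 6 is called dim below. Whether differences are compressed near the top of the scale, or are background at its foot, was not tested.

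The strains differed in the level of most genes at 35 °C. limma called 3633 of the 5449 genes, which is 66.7%, of which 1852 (34%) were higher in met30-6 and 1781 (32.7%) lower. Many of these differences were small, since the median size over all genes was 0.35 at 35 °C and 0.11 at 25 °C. At least 2-fold differences were called for 331 genes higher (6.07%) and 365 lower (6.7%), and at least 4-fold ones for 91 higher (1.67%) and 38 lower (0.697%). At 25 °C limma called 702 genes, or 12.9%, with 378 higher (6.94%) and 324 lower (5.95%), and by at least 2-fold 78 were higher (1.43%) and 31 lower (0.569%). Of the genes called at 35 °C, 588 (16.2%) were also called at 25 °C, and these were 83.8% of the genes called there. The interaction, the difference at 35 °C minus that at 25 °C, was called for 2631 genes (48.3%), 1294 towards met30-6 (23.7%) and 1337 towards PY1 (24.5%). It was at least 2-fold for 249 (4.57%) and 293 (5.38%) of the genes in these directions. The counts at 25 °C rested on single arrays more than those at 35 °C: without met30-6 25 °C replicate 1 or 2 they were 206 and 201 higher and 162 and 173 lower, and without PY1 25 °C replicate 2 there were 248 higher. The median difference over all genes was 0.02 at 35 °C. Counts of each gene list at 35 °C below are to be read beside the shares of all genes, 34% higher and 32.7% lower. Where 0 members of a list are given below as changed in a direction at 35 °C, 0 were also found at an unadjusted p under 0.05, except for 1 lower gene of the citric acid cycle.

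The genes of the Met4 complex did not move one way. *MET32*, which encodes a DNA-binding partner of Met4, read 13.17 and 13.21 in met30-6, against 8.59 and 8.75 in PY1 at 35 °C, and *MET28*, which encodes a further cofactor of the complex, read 13.08 and 13.11 in met30-6, against 9.49 and 9.69 in PY1. Both were far apart between the strains, with log2 differences of 4.52 ± 0.07 (limma, adjusted p = 9.43e-08) and 3.51 ± 0.11. *MET30* itself read 13.03 and 13.11 in met30-6, against 10.98 and 10.97 in PY1, a difference of 2.10 ± 0.06, and *MET4* read 12.17 and 12.02 in met30-6, against 11.31 and 11.28 in PY1, a difference of 0.80 ± 0.07. A temperature-sensitive allele need not alter the amount of its own transcript, so the level of *MET30* does not check the strain labels.

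The other DNA-binding partners were lower in met30-6. *MET31*, the paralog of *MET32*, read 8.30 and 8.15 in met30-6, against 10.72 and 10.80 in PY1, a log2 difference of −2.54 ± 0.09 (limma, adjusted p = 2.09e-06). *CBF1* read 10.85 and 10.72 in met30-6, against 11.12 and 11.18 in PY1, a difference of −0.36 ± 0.08. In all, 4 of the 6 genes of the list rose and 2 fell. Already at 25 °C *MET32*, *MET28* and *MET30* were higher (2.05, 1.70 and 0.65) and *MET31* and *CBF1* lower (−1.85 and −0.35), while *MET4* was not called (0.28). The interaction was called for each of the 6 except *CBF1* (−0.02). For *MET31* it was −0.68, so most of its difference at 35 °C was there without the shift.

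All 10 genes of sulfate uptake and reduction rose, by a median of 3.32, and all 10 were at least 2-fold higher. *SUL1*, a sulfate permease gene, read 14.07 and 14.02 in met30-6, against 5.24 and 5.58 in PY1. This is the largest difference among the called genes whose brighter group had a mean of at least 8, at 8.63 ± 0.11 log2 (limma, adjusted p = 4.90e-08). The PY1 arrays of *SUL1* were dim at 35 °C, whereas at 25 °C met30-6 stood at a mean of 13.51 and PY1 at 8.79. The other sulfate permease gene, *SUL2*, read 13.91 and 14.01 in met30-6, against 9.76 and 9.86 in PY1, a difference of 4.14 ± 0.07.

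The enzymes that carry sulfate to sulfide followed in the same direction. *MET3*, which encodes ATP sulfurylase, read 14.02 and 13.99 in met30-6, against 10.88 and 10.90 in PY1, and *MET14*, which encodes adenylylsulfate kinase, read 14.19 and 14.26 in met30-6, against 11.78 and 11.83 in PY1. The next enzyme, phosphoadenylylsulfate reductase, is encoded by *MET16*, which read 13.92 and 13.96 in met30-6, against 9.78 and 9.86 in PY1. At 4.12 ± 0.06 its log2 difference exceeded those of *MET3* (3.11 ± 0.05) and *MET14* (2.42 ± 0.06). *MET5* and *MET10*, the genes of the sulfite reductase subunits, differed by 2.27 and 2.73, and *MET1* and *MET8*, which make the siroheme of that enzyme, by 3.77 and 3.53. *MET22*, whose product removes the phosphoadenosine phosphate left by the pathway, differed by 1.92. Each of the 10 genes was also higher at 25 °C, by a median of 1.28, and each had a called interaction, from 1.23 for *MET22* to 3.91 for *SUL1*. In met30-6 at 35 °C these genes read between 13.78 for the mean of *MET8* and 14.22 for that of *MET14*, near the highest values on the arrays.

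Genes that scavenge sulfur from other compounds were mostly higher too, with 11 of 12 measured genes higher, each by at least 2-fold, and 1 lower, around a median of 3.10. *JLP1*, which encodes a dioxygenase that releases sulfite from sulfonates, read 14.06 and 14.02 in met30-6, against 6.60 and 6.42 in PY1, a log2 difference of 7.53 ± 0.20. It was almost as large at 25 °C (6.65), and the interaction was 0.88. *BDS1*, an arylsulfatase gene, read 13.95 and 13.95 in met30-6, against 9.56 and 9.66 in PY1, with 4.34 at 35 °C and 3.47 at 25 °C. Transporter genes made up most of the rest of the list. *SEO1*, a putative permease gene, read 13.73 and 13.74 in met30-6, against 7.06 and 7.38 in PY1, and *YCT1*, a cysteine transporter gene, read 14.06 and 14.15 in met30-6, against 7.84 and 8.02 in PY1. Their interactions were 2.95 and 2.97. *AGP3*, an amino acid permease gene, differed by 4.81, the methionine permease genes *MUP3* and *MUP1* by 3.29 and 1.26, the S-methylmethionine permease gene *MMP1* by 2.91, the S-adenosylmethionine permease gene *SAM3* by 1.45 and the glutathione transporter gene *OPT1* by 2.58. *PDC6*, a minor pyruvate decarboxylase gene, stood at 2.76. *SSU1*, which encodes a sulfite efflux pump, was the gene that fell, with 10.92 and 11.001 in met30-6, against 11.99 and 12.08 in PY1, and it was lower at 25 °C too (−0.67). *SOA1* was not measured.

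Genes of methionine and S-adenosylmethionine synthesis were mostly higher but by less, with 11 of 13 higher and 1 lower and a median of 0.72. *MHT1*, which makes methionine from S-methylmethionine, read 13.70 and 13.70 in met30-6, against 10.11 and 10.33 in PY1, and *MET2*, which activates homoserine for sulfur transfer, read 13.75 and 13.72 in met30-6, against 10.37 and 10.46 in PY1. They stood apart from the rest of the list at 3.48 and 3.32. *MET17*, the enzyme gene that takes up sulfide, differed by 0.81, the methionine synthase gene *MET6* by 0.71, and the S-adenosylmethionine synthetase genes *SAM1* and *SAM2* by 0.72 and 1.22. Of the genes that supply the methyl group, *MET13* was higher by 1.58 and its paralog *MET12* by 0.20, a call that was lost in 2 of 16 alternative analyses. *HOM3* and *HOM6* of homoserine synthesis were at 0.75 and 0.64, whereas *HOM2* was not called (−0.17). *SAM4*, a homocysteine methyltransferase gene that uses S-adenosylmethionine, fell by 0.95 on the log2 scale, with 11.66 and 11.57 in met30-6, against 12.53 and 12.61 in PY1. The call of *SAH1* (0.23) was lost in 4 alternatives. In PY1 at 35 °C the means of *MET17*, *MET6*, *SAM2* and *HOM6* were already 13.48, 13.43, 13.14 and 13.68, where the highest array value was 14.51. Those of *MHT1*, *MET2*, *MET13* and *MET12* were 10.22, 10.41, 10.51 and 11.58. Whether the top of the scale limited the smaller differences was not tested.

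In transsulfuration and glutathione metabolism 9 of 12 genes rose and 2 fell, with a median of 0.61. *STR3*, the cystathionine beta-lyase gene, read 13.83 and 13.86 in met30-6, against 11.01 and 11.22 in PY1, and *GSH1*, which catalyses the limiting step of glutathione synthesis, read 13.56 and 13.66 in met30-6, against 10.94 and 10.99 in PY1. Their log2 differences were 2.73 and 2.65 at 35 °C and 0.42 and 0.37 at 25 °C, and the interactions of 2.30 and 2.27 were called. *GSH2*, of the second step, was not called (0.10). *DUG3* and *DUG2*, which take part in glutathione breakdown, were higher by 2.55 and 1.09, and *CYS4* and *CYS3* of the route from homocysteine to cysteine by 0.82 and 0.62. *ECM38* and *GLR1*, for glutathione breakdown and reduction, were each at 0.60, and *DUG1* was at 0.46. *IRC7*, a cysteine desulfhydrase gene, was lower (−0.55). *STR2*, of the reverse route from cysteine to homocysteine, was also lower (−0.18), but that call was lost in 9 of 16 alternatives.

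**Figure D1:**
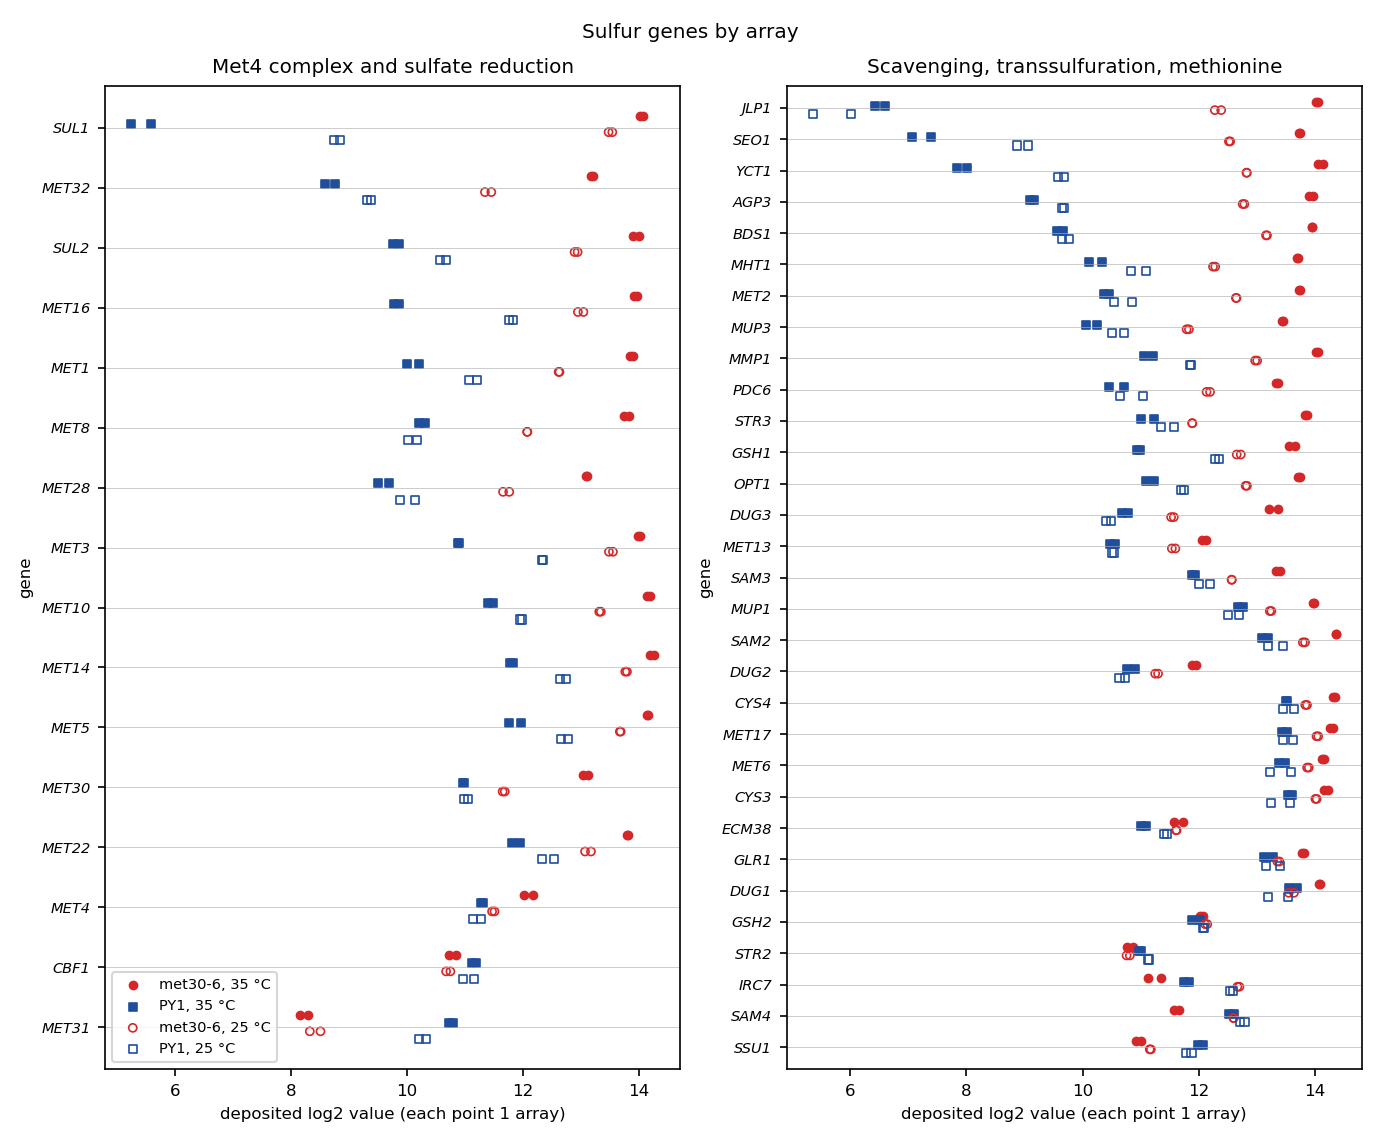
Deposited log2 value (horizontal axis) of sulfur genes, ordered by the difference at 35 °C, with 1 point per array: red circles are met30-6 and blue squares PY1, filled at 35 °C and open at 25 °C. At 35 °C the filled circles of *SUL1* lie at 14.07 and 14.02 and its filled squares at 5.24 and 5.58, while *MET31*, *SSU1*, *SAM4* and *IRC7* lie the other way.

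Across all genes tested, many on the lists above, the 15 genes with the largest higher differences (brighter mean of at least 8) were *SUL1*, *JLP1*, *YOL162W*, *YOL163W*, *SEO1*, *YCT1*, *CRF1*, *AGP3*, *MET32*, *LEE1*, *BDS1*, *YOL164W-A*, *AMF1*, *SUL2* and *MET16*. *YOL162W* read 12.97 and 12.91 in met30-6, against 6.06 and 6.18 in PY1, and its neighbour *YOL163W* read 12.98 and 12.93 in met30-6, against 6.32 and 6.18 in PY1. These putative transporter genes were thus 6.82 and 6.71 higher, next to 4.85 and 5.24 at 25 °C. *LEE1*, a zinc finger protein gene, read 11.84 and 11.69 in met30-6, against 7.44 and 7.08 in PY1, and *AMF1* read 11.90 and 11.80 in met30-6, against 7.39 and 7.75 in PY1. The differences of *LEE1* and *AMF1* were 4.51 and 4.28 at 35 °C and 1.48 and 0.89 at 25 °C. *CRF1*, which encodes a corepressor of ribosomal protein genes, read 11.06 and 11.10 in met30-6, against 5.999 and 6.48 in PY1, a difference of 4.84 ± 0.26 (limma, adjusted p = 1.05e-05), with an interaction of 3.62. *YOL164W-A* was dim in PY1, with 8.53 and 9.03 in met30-6, against 4.48 and 4.42 in PY1.

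On the lower side the 15 genes were *YCL021W-A*, *HO*, *SCS3*, *ARG3*, *YPS3*, *RNH201*, *LTV1*, *CLB6*, *YDR222W*, *MET31*, *BTT1*, *TOS6*, *AFB1*, *TOS2* and *EFM4*. *YCL021W-A*, a small gene of unknown function, read 2.70 and 1.72 in met30-6, against 10.22 and 10.22 in PY1. It was dim in met30-6 and differed by −8.01 at 35 °C and −7.37 at 25 °C, and its interaction was not called (−0.65). *HO*, whose product is the endonuclease of mating-type switching, read 5.89 and 5.68 in met30-6, against 11.41 and 11.58 in PY1, a log2 difference of −5.71 ± 0.09 (limma, adjusted p = 8.97e-08). *HO* was dim in met30-6 at 35 °C. At 25 °C it read 11.50 and 11.56 in met30-6, against 11.67 and 11.64 in PY1, and the difference of −0.12 was not called. *SCS3*, a gene of lipid droplet formation and inositol prototrophy, read 7.57 and 5.68 in met30-6, against 11.51 and 11.63 in PY1. The met30-6 arrays of *SCS3* lay far apart from each other, and the difference was −4.95 ± 0.52. At 25 °C *SCS3* read 10.57 and 10.67 in met30-6, against 11.11 and 11.065 in PY1. This difference of −0.47 ± 0.52 was not called. Its SE is pooled over all groups, so the spread of the met30-6 arrays at 35 °C enters it too. *AFB1*, a gene expressed in MATalpha cells, was at −2.39 at 35 °C and at −3.35 at 25 °C, with a called interaction of 0.96.

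Most differences called at 35 °C were not called at 25 °C. Of the called genes, 1478 were higher and 1567 lower at 35 °C without a call at 25 °C, and the interaction was called in the same direction for 980 and 1149 of them. Among genes that were higher at 35 °C (brighter mean of at least 8), not called at 25 °C and called in the interaction, the largest differences were those of *AAD6*, *PHO92*, *POT1*, *POX1*, *GIP2*, *NQM1*, *ALD3*, *HBT1*, *CTT1* and *DCS2*. *AAD6*, an aryl alcohol dehydrogenase gene, read 11.25 and 11.22 in met30-6, against 7.51 and 7.84 in PY1, and *NQM1*, a transaldolase gene of the stress response, read 13.08 and 13.22 in met30-6, against 10.68 and 10.60 in PY1. *CTT1*, which encodes cytosolic catalase, read 11.27 and 11.34 in met30-6, against 8.999 and 8.99 in PY1. Their log2 differences were 3.56, 2.51 and 2.31 at 35 °C and 0.29, 0.37 and 0.12 at 25 °C. *POT1* and *POX1*, of peroxisomal fatty acid oxidation, were dim in PY1 and differed by 3.14 and 2.97. *PHO92* was dim in PY1 as well, with 8.01 and 8.30 in met30-6, against 5.39 and 4.45 in PY1. The matching genes on the lower side, after *HO* and *SCS3*, were *RNH201*, *LTV1*, *TOS6*, *TOS2*, *EFM4*, *URA1*, *DHR2* and *YHB1*. *URA1*, which encodes dihydroorotate dehydrogenase, read 11.16 and 10.92 in met30-6, against 13.30 and 13.41 in PY1, and *YHB1*, the flavohaemoglobin gene, read 11.11 and 10.998 in met30-6, against 13.17 and 13.38 in PY1. Their differences were −2.31 and −2.22 at 35 °C, next to 0.02 and 0.03 at 25 °C.

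Of the 588 genes called at both temperatures, 511 differed in the same direction, 315 higher and 196 lower. The interaction was called for 182 and 109 of these. Among those without a called interaction, *FRE5*, a putative ferric reductase gene, read 10.19 and 10.16 in met30-6, against 7.14 and 7.36 in PY1 at 35 °C, with differences of 2.93 there and 3.01 at 25 °C. *NCA3* had 2.31 and 2.02, the iron-binding mannoprotein gene *FIT1* 2.01 and 1.67, *SRD1* 2.01 and 1.53, and *PIG2*, which neighbours *MET30*, 1.75 and 1.65. *PAU5*, *YTP1*, *YIR042C*, *GPM2* and *YIR018C-A* were further genes of this kind, with differences at 35 °C from 1.08 for *GPM2* to 1.51 for *PAU5*. On the lower side *DCG1* had −1.96 at 35 °C and −1.37 at 25 °C, and the aquaporin gene *AQY2* −1.05 and −0.999. *YNL058C*, *SOR2*, *YLL053C*, *COA2*, *YBL029W*, *YPL277C* and *PRM10* were lower at 35 °C by amounts between −0.81 for *SOR2* and −1.04 for *YBL029W*. *YLL053C* lies next to *AQY2*.

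**Figure D2:**
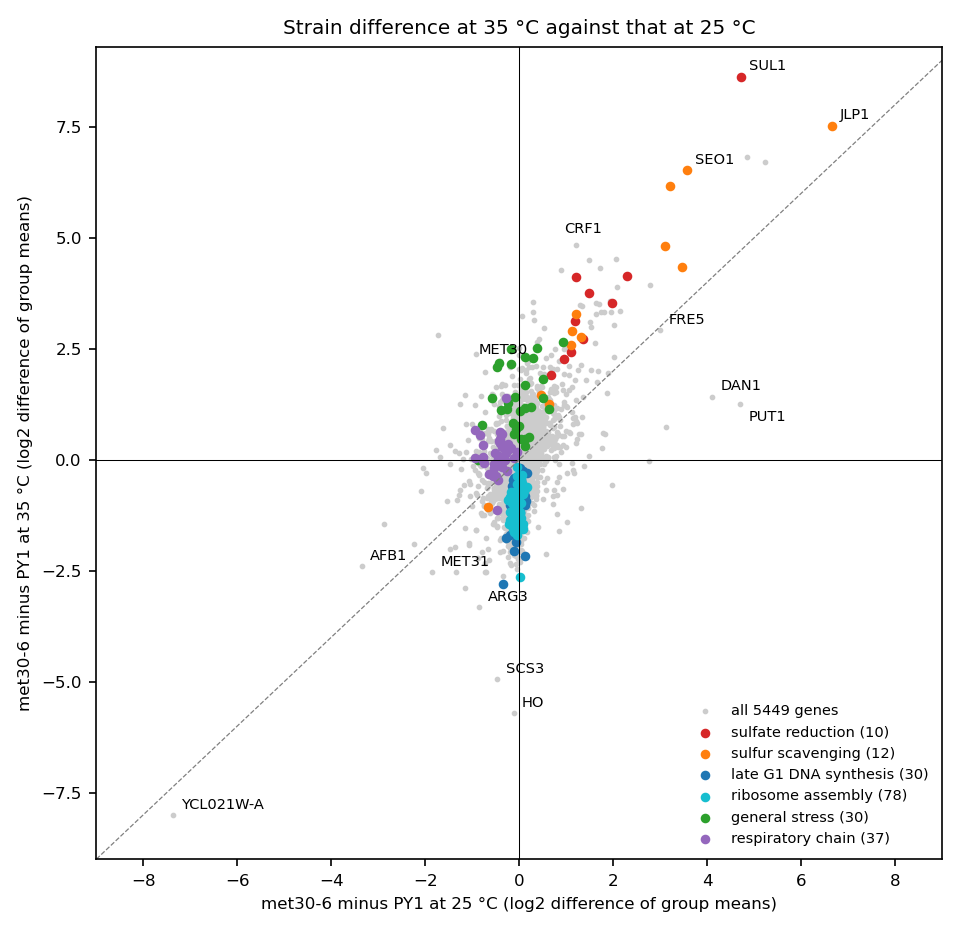
Each point is a gene, placed by its met30-6 minus PY1 log2 difference at 25 °C (horizontal) and at 35 °C (vertical); grey points are all 5449 genes, coloured points are members of 6 lists, and the dashed line marks equal differences. Sulfate genes and all scavenging genes but *SSU1*, which is lower on both axes, lie high on both. Ribosome assembly and late G1 genes lie low near 0 on the horizontal axis, and *YCL021W-A* lies near the dashed line.

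A smaller set of 77 genes was called in opposite directions, 59 higher at 35 °C and lower at 25 °C and 18 the reverse. *FMP16* read 10.24 and 10.36 in met30-6, against 7.98 and 7.84 in PY1 at 35 °C and 6.46 and 6.35 in met30-6, against 7.65 and 7.01 in PY1 at 25 °C. It was thus higher by 2.39 at 35 °C, next to −0.92 at 25 °C. *EGO4* was at 1.24 and −0.94, *SPG4*, a gene of survival in stationary phase, at 1.45 and −0.81, and *YGR174W-A* at 1.97 and −0.73. The reductase gene *GRE2* and *IRC4* moved alike, with 0.79 and 0.77 at 35 °C. *CIN5*, a stress transcription factor gene, and *ATO3*, an ammonium exporter gene, were lower at 35 °C (−1.22 and −0.99) and higher at 25 °C (0.80 and 0.72).

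Met30 works inside a ligase made of the cullin Cdc53, Skp1, the RING protein Hrt1 and the E2 enzyme Cdc34. Of 24 genes of SCF ligases 10 rose and 4 fell, next to 34% and 32.7% of all genes, and the median was 0.15. Without PY1 35 °C replicate 2 the number that fell was 0, and without met30-6 35 °C replicates 1 and 2 it was 2 and 1. *SAF1*, an F-box gene, read 10.73 and 10.79 in met30-6, against 9.52 and 9.59 in PY1 (1.20 ± 0.07), and *CDC53* read 12.18 and 12.22 in met30-6, against 11.41 and 11.43 in PY1 (0.78 ± 0.05). *UFO1*, *GRR1*, *AMN1*, *HRT3* and *DAS1*, which encode F-box or related proteins, rose by 0.48, 0.50, 0.43, 0.40 and 0.33, and *HRT1* by 0.26. The other 2 genes that rose were *ROY1* (0.41) and *ELA1* (0.24), and those that fell were *SKP2* (−0.35), *MDM30* (−0.26), *DIA2* (−0.23) and *MFB1* (−0.22); each of these 6 calls was lost in 2 to 4 of 16 alternatives. *SKP1* (0.17), *CDC34* (−0.02) and *CDC4* (−0.02), the F-box gene of the ligase for Sic1, were not called, and neither were *DCN1*, *LAG2*, *RUB1*, *CTF13*, *UCC1*, *RCY1* and *COS111*. At 25 °C limma called 0 of the 24, with 1 higher and 1 lower at an unadjusted p under 0.05.

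The proteolysis machinery downstream of ubiquitin ligases rose by small, similar amounts. Of 35 proteasome genes 34 rose and 0 fell, with a median of 0.51 and a range of 0.15 to 0.68. *RPN6*, a lid subunit gene, read 13.40 and 13.41 in met30-6, against 12.68 and 12.77 in PY1, a log2 difference of 0.68 ± 0.06, and *RPN4*, the activator of proteasome genes, read 11.81 and 11.86 in met30-6, against 11.26 and 11.26 in PY1, a difference of 0.58 ± 0.05. *RPN5*, *RPN11*, *RPN3* and *RPN8* lay between 0.53 for *RPN8* and 0.64 for *RPN5*. Of 17 genes of Cdc48 and ubiquitin 16 rose and 0 fell, with a median of 0.41. The polyubiquitin gene *UBI4* read 13.95 and 14.13 in met30-6, against 12.91 and 12.95 in PY1, a difference of 1.11 ± 0.07. *NPL4* and *UFD1*, cofactors of the Cdc48 segregase, were at 0.66 and 0.63, and *CDC48* itself was at 0.29. *RSP5*, *UBC5* and *UBA1*, a ligase, an E2 and the E1 gene, were at 0.58, 0.55 and 0.54. At 25 °C limma called 0 of the 35 proteasome genes and 0 of these 17, next to 1 and 3 at an unadjusted p under 0.05.

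Genes of the G1 and Start programme were mostly lower in met30-6. Start is the commitment to a new cell cycle. There the G1 cyclin Cln3 leads to release of the factor SBF from the repressor Whi5. SBF and the related factor MBF drive late G1 genes. In bulk RNA, a smaller share of cells in a stage and less RNA per cell cannot be told apart. Of 24 genes 17 fell and 1 rose, with a median of −0.58. The late G1 cyclin genes *CLN1* and *CLN2* read 9.45 and 9.47 in met30-6, against 11.21 and 11.25 in PY1, and 10.01 and 9.82 in met30-6, against 11.68 and 11.61 in PY1. The S-phase cyclin genes *CLB5* and *CLB6* read 9.50 and 9.37 in met30-6, against 11.18 and 11.25 in PY1, and 8.26 and 8.39 in met30-6, against 10.93 and 10.95 in PY1. All of these lay lower in met30-6, with log2 differences of −1.77 ± 0.05, −1.73 ± 0.08, −1.78 ± 0.07 and −2.62 ± 0.08. *PCL1*, a cyclin gene of the Pho85 kinase, was at −2.15, its relative *PCL2* at −1.07, and *NRM1*, a corepressor of MBF, at −1.95.

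*CLN3*, which acts upstream of these genes, was the one that rose, with 11.22 and 11.14 in met30-6, against 10.68 and 10.75 in PY1 and a log2 difference of 0.47 ± 0.06. Its difference at 25 °C was −0.20, not called, and the interaction was 0.66. The genes of the factors themselves moved little: *SWI6*, the shared subunit of SBF and MBF, was at −0.39, *MBP1* at −0.21, a call lost in 4 of 16 alternatives, and *SWI4* at −0.24, not called. *WHI5* was lower by more (−0.69), as were *STB1* (−1.05) and the kinase gene *SWE1* (−0.82). *CDC28*, the cell cycle kinase gene, was at −0.55, *SWI5* at −0.61, *PCL9* at −0.24 and *WHI3* at −0.29, the last lost in 2 alternatives. *SIC1*, whose product inhibits the S-phase cyclin kinase, read 11.18 and 11.05 in met30-6, against 11.11 and 11.29 in PY1, and the groups overlapped. *FAR1* (−0.17), *ASH1* (−0.11), *BCK2* (0.08) and *CKS1* (−0.04) were not called either.

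Late G1 genes of DNA synthesis fell in 29 of 30 cases and rose in 0, with a median of −1.06, and 17 were at least 2-fold lower. *RNR1*, the large subunit gene of ribonucleotide reductase, read 10.98 and 10.88 in met30-6, against 13.05 and 13.14 in PY1, and *POL1*, the catalytic subunit gene of DNA polymerase alpha, read 10.64 and 10.54 in met30-6, against 12.59 and 12.71 in PY1. Their log2 differences were −2.17 ± 0.08 and −2.06 ± 0.07. The mismatch repair gene *MSH6*, the primase gene *PRI2*, the flap endonuclease gene *RAD27* and *POL12* were at −1.86, −1.69, −1.25 and −1.25. *RFA1* was the member that was not called (−0.19). At 25 °C 1 of the 30 was lower. Of 17 other late G1 genes 16 fell and 0 rose, with a median of −1.07. *TOS6*, a cell wall protein gene, read 11.14 and 10.89 in met30-6, against 13.45 and 13.51 in PY1, and *TOS2*, a bud neck protein gene, read 6.86 and 6.57 in met30-6, against 9.03 and 9.17 in PY1. *TOS4*, the repressor gene *YOX1*, *SVS1* and the polarity gene *GIC1* were at −1.89, −1.81, −1.99 and −1.13.

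Genes of origin licensing, histones and mitosis were mostly lower or not called. Of 14 origin licensing genes 7 fell and 0 rose (median −0.20), with *ORC1* at −0.48, *ORC6* at −0.53, *CDC6* at −0.53, *MCM7* at −0.43, *ORC2* at −0.41 and *TAH11* at −0.24. With quantile normalisation 2 genes of the list rose, and with array medians centred 1 did. Of 9 histone genes 7 fell and 0 rose (median −0.26). *HTB2*, an H2B gene, read 12.21 and 12.26 in met30-6, against 13.38 and 13.40 in PY1, a log2 difference of −1.16 ± 0.05. *HHT1* was at −0.72 and the linker histone gene *HHO1* at −0.67, while the calls of *HTA1* (−0.27), *HHF1* (−0.26) and *HTZ1* (−0.25) were each lost in 2 to 4 alternatives. The number of histone genes that fell was 3 without PY1 35 °C replicate 2 or without met30-6 35 °C replicate 1, and 9 with quantile normalisation.

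Of 19 mitotic genes of the *CLB2* cluster 18 fell and 0 rose, with a median of −0.61, and 7 were already lower at 25 °C. *CLB1*, a mitotic cyclin gene, read 10.48 and 10.41 in met30-6, against 11.66 and 11.65 in PY1, a log2 difference of −1.21 ± 0.05. *BUD4*, *KIN3*, *BUD3*, *HOF1* and *CLB4*, of bud site marking, mitosis and cytokinesis, were between −0.84 for *BUD4* and −0.66 for *CLB4*. Of 19 genes of the M/G1 boundary 9 rose and 3 fell (median 0.14). *RME1*, a repressor of meiosis, and *DSE1*, a daughter cell gene, were at 0.78 and 0.77, and *SCW11* at 0.45, whereas *CDC6* on the same list fell.

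**Figure D3:**
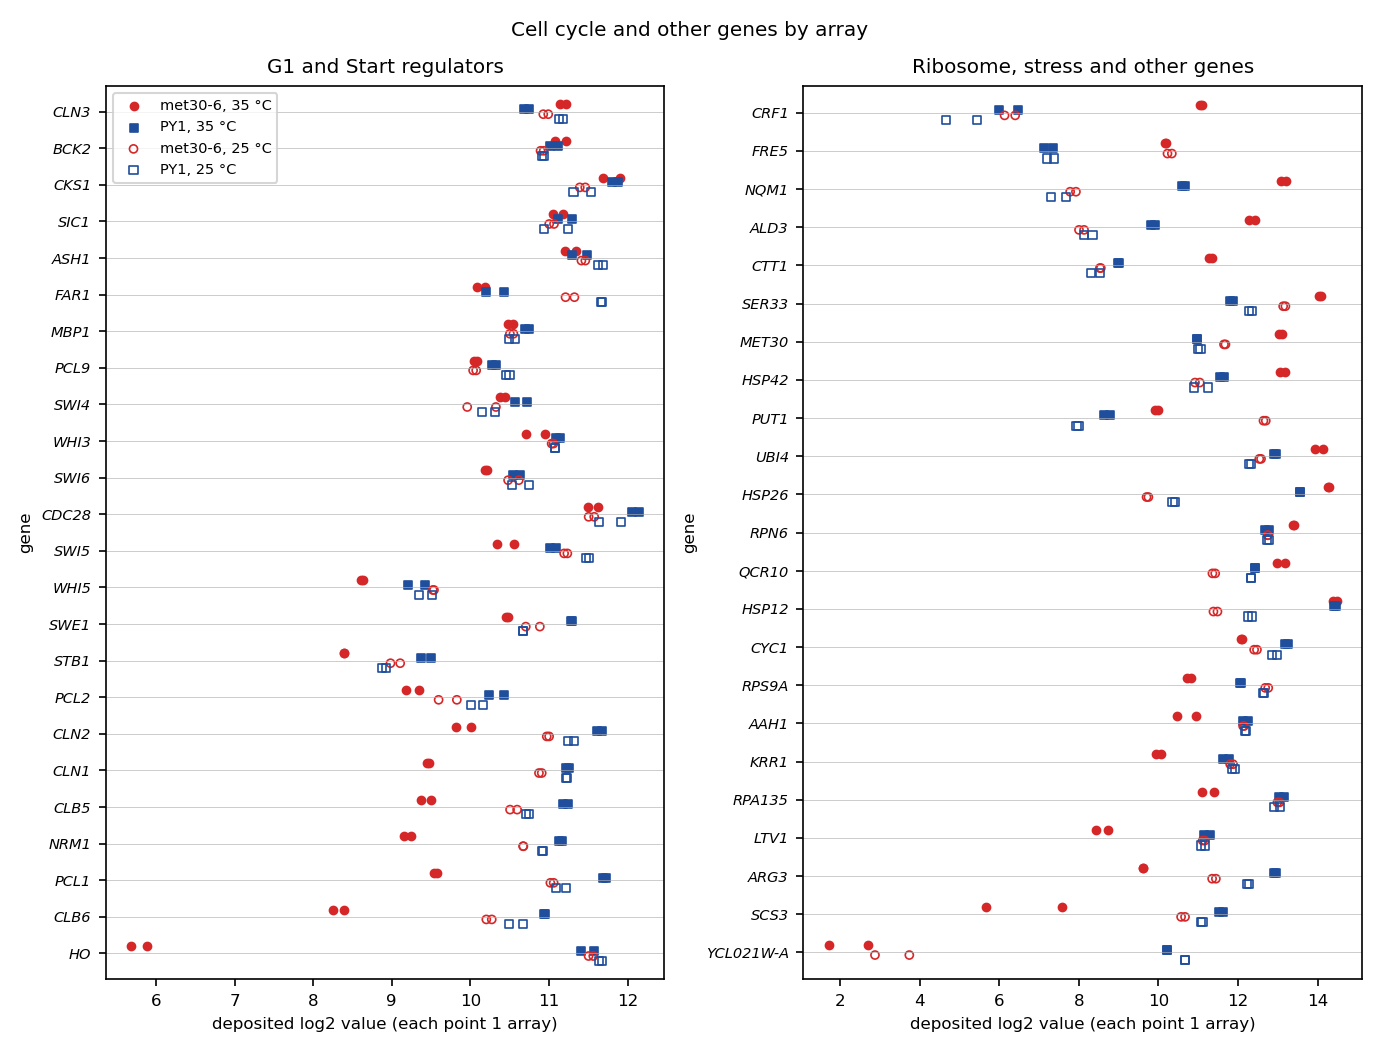
Deposited log2 value (horizontal axis) of all measured G1 and Start genes (left) and of selected genes of ribosome synthesis, stress and metabolism (right), with 1 point per array: red circles are met30-6 and blue squares PY1, filled at 35 °C and open at 25 °C. For *HO* the filled circles lie at 5.89 and 5.68 and the filled squares at 11.41 and 11.58, whereas for *SIC1* the points of both strains overlap.

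Genes for making ribosomes were lower as a group. Ribosome assembly factors process the precursor RNA and fold it with ribosomal proteins. All 78 measured were called lower, with a median of −1.09, and 41 were at least 2-fold lower. *LTV1*, a factor of small subunit assembly, read 8.73 and 8.42 in met30-6, against 11.16 and 11.30 in PY1, a log2 difference of −2.65 ± 0.11 (limma, adjusted p = 3.94e-06). *KRR1*, also of the small subunit, read 10.06 and 9.94 in met30-6, against 11.63 and 11.76 in PY1, and the RNA helicase genes *DBP3*, *DBP8* and *HAS1* differed by −1.63, −1.45 and −1.44. *RRP12* was at −1.36 and the helicase gene *DHR2* at −2.23, where the met30-6 arrays read 8.74 and 8.05. At 25 °C limma called 1 of the 78 lower and 0 higher, and 0 were higher at an unadjusted p under 0.05 too. *MDN1* was not measured. The RNA polymerases that transcribe ribosomal and transfer RNA fell alongside, with 19 of 21 genes lower and 1 higher (median −0.94). *RPA135*, a large subunit gene of RNA polymerase I, was at −1.84, *RPA190* at −1.66, *RPA43* at −1.58, *RPA49* at −1.37, and *RPC34*, *RPC82* and *RPC25* of RNA polymerase III at −1.56, −1.09 and −1.12. The gene that rose was *RRN3*, an initiation factor of polymerase I (0.31).

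Ribosomal protein genes had a median of −0.20. Of 127 measured 71 fell and 1 rose, and 2 were at least 2-fold lower. *RPS9A* read 10.73 and 10.82 in met30-6, against 12.07 and 12.05 in PY1, and *RPL9A* read 12.24 and 12.30 in met30-6, against 13.32 and 13.27 in PY1. These differences, −1.29 and −1.02, were followed by those of *RPS17B* (−0.84), *RPS14B* (−0.80), *RPL12A* (−0.50) and *RPS8B* (−0.49), and *RPL15B* was the gene that rose (0.34). The number that fell depended on the scaling: it was 56 with array medians centred and 118 with quantile normalisation, and it ranged from 54 to 118 over all alternatives. Many of these genes come in near-identical pairs, which the probe sets may not separate. Of 10 regulator genes 2 rose and 3 fell. Besides *CRF1*, *STB3* rose (0.50), and *FHL1*, whose product *CRF1* binds, fell (−0.66), as did *RAP1* (−0.52) and the kinase gene *SCH9* (−0.38). *HMO1* was not called (0.18). Genes of the mitochondrial ribosome were higher for 27 of 66 members and lower for 7, at a median of 0.10. Without PY1 35 °C replicate 1 or met30-6 35 °C replicate 1 the number higher was 15 and 16, and the number lower ranged from 1 to 9 over the alternatives. The members with the lowest adjusted p included *MRP8*, *MRP4* and *MRP10* at 0.77, 0.68 and 0.40. *RSM23*, *MRPL51* and *MRP20* were at 0.34, 0.35 and 0.35.

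Stress genes were higher in met30-6 than in PY1 although both strains had spent the same time at 35 °C. Of 30 general stress genes, targets of the factors Msn2 and Msn4, 28 rose and 0 fell, with a median of 1.18, and 20 were at least 2-fold higher. *ALD3*, an aldehyde dehydrogenase gene, read 12.29 and 12.43 in met30-6, against 9.92 and 9.82 in PY1, and *DCS2* read 12.91 and 13.05 in met30-6, against 10.68 and 10.69 in PY1. *MSC1* read 13.21 and 13.29 in met30-6, against 11.08 and 11.10 in PY1, and the differences of the 3 genes were 2.49, 2.30 and 2.16. *MOH1* was at 2.66 and the proteinase inhibitor gene *PAI3* at 1.41. *HSP12*, a membrane chaperone gene, had a mean of 14.43 in met30-6 and 14.43 in PY1 at 35 °C, at the top of the measured range, and was not called. At 25 °C 4 of the 30 were higher and 3 lower.

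Heat shock chaperone genes rose in 26 of 30 cases and fell in 0, with a median of 0.50. *HSP42*, a small heat shock protein gene, read 13.06 and 13.19 in met30-6, against 11.66 and 11.55 in PY1 (1.52 ± 0.12), and *SSE2*, a nucleotide exchange factor gene, read 12.61 and 12.69 in met30-6, against 11.29 and 11.33 in PY1 (1.34 ± 0.08). The mitochondrial disaggregase gene *HSP78* was at 1.19, its cytosolic relative *HSP104* at 0.87 and *SSA3*, an Hsp70 gene, at 1.16. *HSP26* was higher by 0.70 at 35 °C, with means of 14.27 in met30-6 and 13.57 in PY1, and stood at −0.66 at 25 °C. Trehalose and glycogen genes rose in 19 of 21 cases and fell in 2, with a median of 1.09. *GIP2*, a phosphatase targeting subunit gene, was at 2.52, the glycogen debranching enzyme gene *GDB1* at 1.84, *PIG2* at 1.75, the phosphoglucomutase gene *PGM2* at 1.61, the glycogen phosphorylase gene *GPH1* at 1.29, and *ATH1* and *TPS2* of trehalose metabolism at 1.25 and 1.03. *PGM1*, the other phosphoglucomutase gene, fell (−0.94).

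Genes of thiol redox balance and peroxide removal were higher for 27 of 37 members and lower for 3, with a median of 0.55. *GTO1*, an omega-class glutathione transferase gene, read 12.08 and 12.19 in met30-6, against 8.60 and 8.75 in PY1, and the glutaredoxin gene *GRX8* read 13.58 and 13.78 in met30-6, against 10.38 and 10.29 in PY1. These stood above the rest at 3.46 and 3.34, with 1.34 and 2.15 at 25 °C. The peroxiredoxin genes *TSA2* and *PRX1* were at 1.93 and 1.20, the glutathione transferase gene *GTT2* at 1.21 and the peroxidase gene *GPX2* at 0.92. Of 5 measured aryl alcohol dehydrogenase genes 4 rose and 1 fell, with *AAD4* at 2.18, *AAD3* at 1.20 and *AAD14* at 0.55 after *AAD6*. *AAD10* was at −0.30, a call lost in 1 alternative. These genes are near-identical copies, and their probe sets may share signal.

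Folding genes of the endoplasmic reticulum rose in 16 of 21 cases and fell in 1, with a median of 0.55. *SIL1*, an exchange factor gene, read 12.35 and 12.48 in met30-6, against 10.96 and 10.97 in PY1, and *ERO1*, whose product oxidises thiols for disulfide formation, read 13.87 and 14.001 in met30-6, against 12.78 and 12.74 in PY1. *SIL1*, *ERO1*, the disulfide isomerase gene *MPD1* and *LHS1* differed by 1.45, 1.18, 1.12 and 1.10, and *HRD1* and *DER1* of the degradation pathway by 0.82 and 0.79. Autophagy genes rose in 27 of 34 cases and fell in 1, with a median of 0.54. *ATG41* read 13.90 and 13.97 in met30-6, against 11.82 and 11.83 in PY1, *ATG1*, the kinase gene that starts autophagy, 11.46 and 11.50 in met30-6, against 9.69 and 9.84 in PY1, and *ATG8*, the gene of the lipidated membrane protein, 11.91 and 12.05 in met30-6, against 10.72 and 10.63 in PY1. They were higher by 2.12, 1.72 and 1.31, and *ATG9*, *ATG17* and *ATG19* by 2.02, 1.41 and 0.85. *ATG41* and *ATG9* were also higher at 25 °C (1.06 and 1.25).

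Of 37 respiratory chain genes 13 were higher and 7 lower at 35 °C, next to 34% and 32.7% of all genes, with a median of 0.06. At 25 °C, by contrast, 28 were lower and 0 higher, with a median of −0.43 (0 higher also at an unadjusted p under 0.05). List counts at 25 °C, here and elsewhere, were not recomputed under the alternatives. With quantile normalisation the counts at 35 °C became 8 higher and 13 lower with a median of −0.08, so the list has no settled direction there, and without PY1 35 °C replicate 2 the number lower was 4. The interaction was called towards met30-6 for 27 genes and towards PY1 for 1. *QCR10*, a subunit gene of the cytochrome bc1 complex, read 12.98 and 13.19 in met30-6, against 12.43 and 12.42 in PY1 at 35 °C and 11.36 and 11.43 in met30-6, against 12.34 and 12.34 in PY1 at 25 °C, which turned its order. *SDH2* and *SDH4* of succinate dehydrogenase were at 0.56 and 0.63 at 35 °C and at −0.83 and −0.40 at 25 °C. *CYC1*, the main cytochrome c gene, was lower at both temperatures (−1.14 and −0.48), as were *COX12* (−0.46 and −0.46) and *ATP14* (−0.36 and −0.50).

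Of the 14 citric acid cycle genes 12 rose and 0 fell, with a median of 0.41. *CIT2*, a citrate synthase gene of peroxisomes, read 13.79 and 13.81 in met30-6, against 12.62 and 12.69 in PY1, and *IDH1*, an isocitrate dehydrogenase gene, read 14.09 and 14.16 in met30-6, against 13.05 and 13.11 in PY1. *CIT2* and *IDH1* were at 1.14 and 1.04, and *CIT1*, *ACO1*, *LSC2* and *KGD2* were between 0.37 for *KGD2* and 0.72 for *CIT1*. Of 22 genes of fatty acid oxidation and gluconeogenesis 14 rose and 2 fell, with a median of 0.52 (9 rose without PY1 35 °C replicate 1). After *POT1* and *POX1*, *PXA1*, a peroxisomal transporter gene, the carnitine transfer genes *CAT2* and *CRC1*, and *FOX2* were at 1.38, 1.36, 1.24 and 0.87. Glycolysis genes moved little, at a median of 0.09, with 6 of 18 higher and 0 lower, next to 34% and 32.7% of all genes. Among them *GPM2*, *TDH1*, *PYK2*, *PDC5*, *ENO1* and *PGI1* were at 1.08, 0.69, 0.67, 0.68, 0.44 and 0.31. Of 17 hexose transport genes 2 rose and 2 fell, and the number that rose was 1 to 4 over the alternatives. *HXT5* read 8.55 and 8.58 in met30-6, against 6.73 and 6.49 in PY1, *HXT4* read 10.65 and 10.72 in met30-6, against 12.28 and 12.27 in PY1, and *HXT2* was at −0.56. *SNF3* (0.23) lost its call in 6 of 16 alternatives, and *HXT9* and *RGT2* were not called (0.66 and 0.35).

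Of 13 genes of arginine metabolism 5 rose and 7 fell, next to 34% and 32.7% of all genes. *ARG3*, the ornithine carbamoyltransferase gene, read 9.62 and 9.62 in met30-6, against 12.91 and 12.96 in PY1, and *ARG8*, of ornithine synthesis, read 10.50 and 10.49 in met30-6, against 12.45 and 12.55 in PY1. *ARG3* and *ARG8* differed by −3.32 and −2.004 at 35 °C and by −0.85 and −0.67 at 25 °C. *ARG7* and *ARG4* were at −1.41 and −0.87. The breakdown gene *CAR2* was higher (1.51), as was *CAR1*, the arginase gene (1.05), and so was *CPA1* (0.95), whose enzyme makes carbamoyl phosphate. Of 45 genes for other amino acids 31 fell and 3 rose, with a median of −0.42. *LYS4* and *LEU9* were at −1.68 and −1.52, *HIS3*, *PRO1* and *HIS6* at −1.44, −1.02 and −0.87, and *ARO9*, an aromatic aminotransferase gene, was among the 3 that rose (1.35, next to −0.36 at 25 °C).

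The serine pathway, which feeds carbon into cysteine and methyl groups, had 5 of 14 genes higher and 6 lower, next to 34% and 32.7% of all genes. *SER33*, of the first step, read 14.05 and 14.09 in met30-6, against 11.81 and 11.88 in PY1, and its paralog *SER3* read 11.66 and 11.78 in met30-6, against 10.64 and 10.65 in PY1. They rose by 2.22 and 1.07, and *SER1*, of the next step, by 0.96, while *SER2*, of the last step, fell (−0.66). The folate enzyme genes *MIS1* and *MTD1* were lower (−1.54 and −0.56). Purine genes were lower in 8 of 15 cases and higher in 2, with 5 lower without PY1 35 °C replicate 2 or met30-6 35 °C replicate 2. *AAH1*, the adenine deaminase gene, read 10.96 and 10.48 in met30-6, against 12.13 and 12.25 in PY1, a log2 difference of −1.47 ± 0.14, and *GUA1* was at −1.04. *ADE1* and *ADE8* were at −0.78 and −0.66, while *ADE16* and *ADE12* rose (0.64 and 0.47).

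Of 22 genes for the use of other nitrogen sources 10 rose and 6 fell, next to 34% and 32.7% of all genes. *PUT1*, the proline oxidase gene, read 10 and 9.92 in met30-6, against 8.64 and 8.78 in PY1 at 35 °C and 12.64 and 12.70 in met30-6, against 7.94 and 7.99 in PY1 at 25 °C. Its difference was thus 1.25 at 35 °C and 4.70 at 25 °C, with an interaction of −3.45. *PUT2* was higher at both temperatures (0.64 and 1.005), but the proline permease gene *PUT4* was lower at both (−2.22 and −0.89). *GDH2*, *UGA1* and the activator gene *GAT1* were at 0.95, 0.99 and 1.02, and the allantoinase gene *DAL1* fell (−2.32).

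Of 28 iron genes 13 were higher and 5 lower at 35 °C, next to 34% and 32.7% of all genes. At 25 °C 15 were higher and 1 lower, next to 6.94% and 5.95% of all genes. After *FRE5* and *FIT1*, *ARN2*, a siderophore transporter gene, read 12.10 and 12.09 in met30-6, against 10.25 and 10.33 in PY1, with 1.80 at 35 °C and 1.19 at 25 °C. *TIS11*, which encodes an RNA-binding protein of iron limitation, was at 0.95 and *FIT2* at 0.59, whereas *FTR1*, the high-affinity iron permease gene, and *FRE4* fell (−0.60 and −1.45). Of 21 phosphate genes 8 rose and 5 fell, next to 34% and 32.7% of all genes. The acid phosphatase genes *PHO3*, *PHO5* and *PHO11* were at −2.34, −1.54 and −0.65 and *SPL2* at −0.72, and *PHM7* and *PHM8* were at 1.89 and 1.52. *PHO3* read 10.04 and 9.84 in met30-6, against 12.28 and 12.26 in PY1, and *PHM7* read 10.72 and 10.91 in met30-6, against 8.98 and 8.86 in PY1. The acid phosphatase genes are close copies that may share signal.

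Of 18 genes of phospholipid and inositol synthesis 6 rose and 3 fell, next to 34% and 32.7% of all genes. *INO1*, of inositol synthesis, read 9.41 and 9.42 in met30-6, against 7.25 and 6.88 in PY1, a log2 difference of 2.36 ± 0.16. *CHO2* and *OPI3*, which use S-adenosylmethionine to methylate phosphatidylethanolamine, read 13.98 and 13.98 in met30-6, against 13.02 and 13.11 in PY1, and 13.52 and 13.59 in met30-6, against 12.70 and 12.67 in PY1. They were higher by 0.91 and 0.87, and *EPT1* and *PSD2* by 0.35 and 0.34. Of 29 ergosterol genes 9 rose and 3 fell, next to the same shares of all genes. *ERG28*, *ERG9* and *HMG2* were at 0.58, 0.49 and 0.61. The calls of *ERG7* (0.25) and *ARE2* (0.34) were each lost in 2 alternatives. The number that rose ranged from 5 without PY1 35 °C replicate 1 or met30-6 35 °C replicate 1 to 15 with array medians centred, and was 14 without either PY1 25 °C replicate. With quantile normalisation 7 rose and 9 fell, and 0 fell without PY1 35 °C replicate 2 or met30-6 35 °C replicate 2. *HES1*, an oxysterol-binding protein gene, was at 0.74, next to 3.13 at 25 °C.

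Of 24 cell wall genes 7 were higher and 8 lower, near the shares of all genes (34% and 32.7%), with 3 and 4 higher without PY1 35 °C replicate 1 and met30-6 35 °C replicate 2. *GSC2*, a glucan synthase gene induced by stress, read 13.87 and 13.91 in met30-6, against 11.99 and 11.98 in PY1, and the yapsin protease gene *YPS3* read 7.48 and 7.24 in met30-6, against 10.23 and 10.30 in PY1. *GSC2* was higher by 1.90 and the mannoprotein gene *CWP1* by 0.74, while *YPS3* (−2.90), *SCW10* (−1.64), *UTR2* (−1.47) and *CRH1* (−0.94) were lower. Of 13 genes induced in anaerobic cells 7 were higher and 3 lower at 35 °C, and 8 were higher at 25 °C. The 7 became 4 without PY1 35 °C replicate 1 or met30-6 35 °C replicate 1. *DAN1*, a wall mannoprotein gene, was dim in both strains at 35 °C (5.93 in met30-6 and 4.51 in PY1 as means) and at 25 °C read 8.61 and 8.66 in met30-6, against 4.47 and 4.58 in PY1. *COX5B*, *TIR1* and *DAN4* were at 1.06, 0.48 and 0.86, and *AAC3* and *HEM13* at −0.97 and −0.46. Of 14 DNA damage genes 7 rose and 1 fell, with *PHR1*, *RAD2*, *MAG1*, *DDR48* and *RAD16* at 1.10, 1.02, 0.69, 0.67 and 0.32 and *DUN1* at −0.49.

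**Figure D4:**
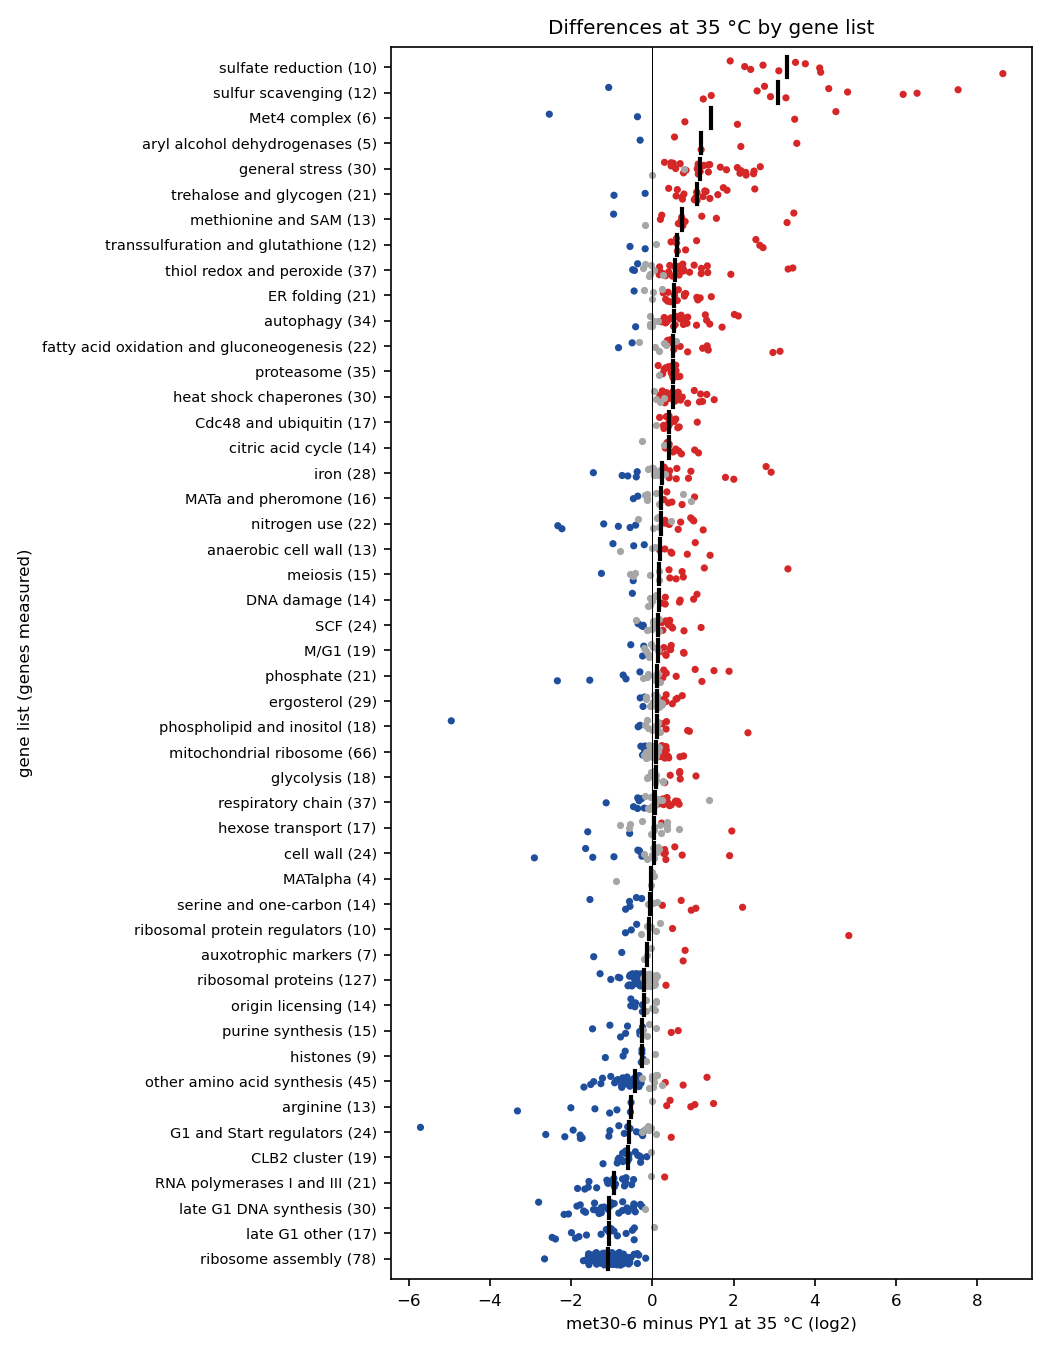
Each point is a gene of a list, placed by its met30-6 minus PY1 log2 difference at 35 °C, with red for genes called higher, blue for genes called lower and grey for genes not called; the black bar is the median of the list, and lists are ordered by it. Medians run down the page to −1.09 for ribosome assembly, with 3.32 for sulfate reduction at the head.

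The mating type markers were read in both strains. Of the MATa genes, *STE2*, the alpha-factor receptor gene, had means of 13.17 in met30-6 and 12.77 in PY1 at 35 °C, and *MFA1*, an a-factor gene, had 12.63 in met30-6 and 11.90 in PY1. Of the MATalpha genes, *MF(ALPHA)1* had means of 3.79 in met30-6 and 3.83 in PY1 and *STE3* of 6.36 in met30-6 and 6.32 in PY1, and 0 of the 4 were called. Among the other markers *BAR1*, the MATa protease gene, had means of 6.24 in met30-6 and 5.27 in PY1, and *SAG1*, the MATalpha agglutinin gene, had 9.78 in met30-6 and 9.78 in PY1. *AFB1*, described above, is a gene of MATalpha cells that is not among these 4. It was called lower, with means of 6.37 in met30-6 and 8.76 in PY1. Levels of different probe sets cannot be set against each other, so these values do not settle the mating type. Among 16 genes of MATa cells and pheromone response 6 were higher and 2 lower at 35 °C (median 0.22), with *FUS2*, *MFA1*, *STE6*, *SST2* and *AGA1* at 1.04, 0.73, 0.48, 0.36 and 0.29, and *AGA2* at −0.47. The number lower was 1 without PY1 35 °C replicate 2 or met30-6 35 °C replicate 2, and 4 without met30-6 35 °C replicate 1. At 25 °C limma called 0 higher and 5 lower, and 0 were higher at an unadjusted p under 0.05 too. Of 15 meiotic genes 7 were higher and 2 lower, and with quantile normalisation 4 were higher and 4 lower. *MER1*, of meiotic splicing, read 7.13 and 6.33 in met30-6, against 4.33 and 2.45 in PY1, dim in PY1 and far apart between its arrays. *NDT80*, the meiotic activator gene, was at 0.59, *ZIP1* at 0.73, *SGA1* at 1.28 and *SPS1* at 0.76, a call lost in 1 alternative, while *IME1*, the inducer gene, fell (−0.47). The other meiotic gene called lower fell by more, at least 2-fold, and differences on the list ran from −1.25 to 3.34. Of 7 genes used as auxotrophic markers 2 were higher and 2 lower, with *HIS3* at −1.44, *LYS2* at −0.75 and *LEU2* at 0.76, next to −0.26 for *LEU2* at 25 °C. *MET17*, on this list too, was described above, and *URA3* and *ADE2* were not called (−0.21 and −0.13).

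No chromosome stood apart as a whole. The median difference at 35 °C lay between −0.03 over the 316 genes of chromosome 10 and 0.10 over the 293 genes of chromosome 11, and 62.2% to 69.9% of the genes of each were called. At 25 °C the medians lay between −0.01 and 0.02.

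Some of the large differences lay side by side. Across neighbouring protein-coding genes, the differences at 35 °C correlated at r of 0.194 for the 1287 measured divergent pairs, which share the stretch between their starts, at 0.122 for 2399 pairs on the same strand and at −0.02 for 1331 convergent pairs. Pairs share arrays and genes recur in them, so these values describe these arrays. Among pairs with both genes called, the direction was shared in 64.9% of 556 divergent, 54.3% of 1090 same-strand and 49% of 608 convergent pairs. Runs of at least 3 adjacent measured genes that were all called at least 2-fold one way numbered 7. The longest holds *MHT1*, *MMP1*, *GTT2*, *JLP1*, *YLL056C* and *YCT1*, with log2 differences of 3.48, 2.91, 1.21, 7.53, 2.24 and 6.18. *HSU1* lies within that run and was not measured. A second run holds *YOL164W-A*, *BDS1*, *YOL163W* and *YOL162W*, all described above.

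The other 5 runs were shorter or smaller. *YIL165C*, the nitrilase gene *NIT1*, the invertase gene *SUC2* and *POT1* were higher by 3.29, 2.98, 1.30 and 3.14, and *SLZ1*, *YNL195C* and *YNL194C* by 1.43, 1.35 and 1.41. *YVH1*, *DAL1* and *DAL4* were lower, at −2.03, −2.32 and −1.20, as were *YOR072W-B*, the shugoshin gene *SGO1* and the thymidylate synthase gene *CDC21*, at −1.17, −1.35 and −1.38. *RPA43*, *RPA190* and *YOR342C* were at −1.58, −1.66 and −1.10.

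Neighbours could also move apart. *YDR222W*, of unknown function, read 9.76 and 9.68 in met30-6, against 12.23 and 12.30 in PY1, and *CRF1*, which follows it on the same strand, was 4.84 higher. *BTT1*, a gene of the nascent polypeptide-associated complex, read 7.20 and 7.21 in met30-6, against 9.65 and 9.82 in PY1 (−2.53 ± 0.08) and converges with *MET32*, which was 4.52 higher. *SCS3*, the gene with the third largest lower difference, lies between *SOH1*, 2.10 higher, and *MET13*, 1.58 higher and on the same strand as *SCS3*. These loci were chosen after their values were seen. Whether transcripts of one gene run through its neighbour, or whether the arrays report overlapping transcripts, was not tested.

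**Figure D5:**
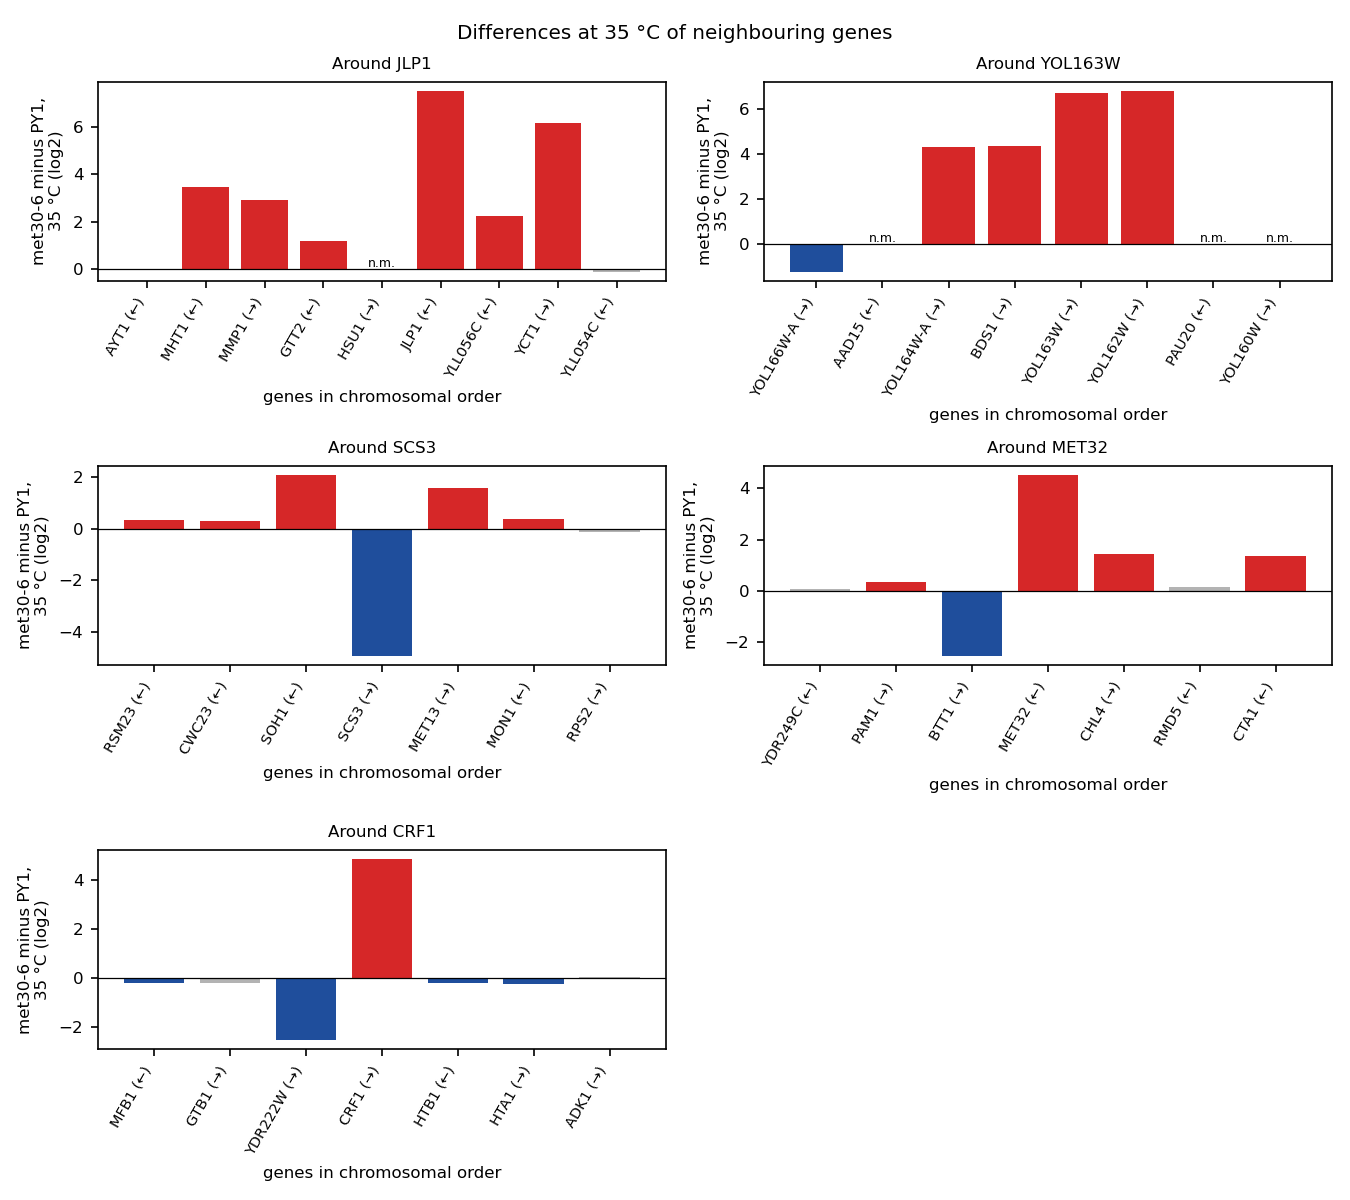
Bars give the met30-6 minus PY1 log2 difference at 35 °C of genes in chromosomal order around *JLP1*, *YOL163W*, *SCS3*, *MET32* and *CRF1*, with red for genes called higher, blue for genes called lower and grey for genes not called; arrows give the strand and n.m. marks genes that were not measured. Around *JLP1* 6 measured genes in a row are higher, whereas *SCS3*, *BTT1* and *YDR222W* each lie lower beside a higher gene.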

How the data were processed

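Total RNA was measured on 8 arrays, 2 per group, with groups and replicate numbers taken from the sample titles. The authors deposited 1 table of 5716 probe sets, read here as log2 values because they ran from 0 to 14.51, so each fold rests on base 2. The background correction, summarisation, scaling and software behind it were not given in the sources used here. Precision is limited by the number of arrays, and no scanner signal was used.

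Probe sets were named through the platform annotation, with 12 symbols updated from an R64 gene table, which also gave the order of genes. There were 5498 probe sets with 1 symbol, 0 with several and 218 unnamed, which were left out. For 47 genes with several probe sets the brightest probe set by its mean over the 8 arrays was kept. At 35 °C all probe sets were called for 13 of these genes, some for 18 and none for 16, and those of *YBR219C* were called in opposite directions (−0.54 and 0.71). This left 5449 genes, 116 of them on probe sets that may match several transcripts and 231 with a mean under 6.

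Using limma 3.58.1 under R 4.3.3, lmFit, contrasts.fit and eBayes estimated the means of 4 groups on the 8 arrays, with 4 residual and 2.7 prior degrees of freedom. Two-sided p-values received the Benjamini-Hochberg adjustment over the 5449 genes within each of 3 comparisons: the strains at 35 °C, the strains at 25 °C, and the interaction. The fit was tested on simulated data with known changes. The 48 gene lists were described by counts and medians, with no set test. A planned search of promoter motifs was not run, because no sequence was used here.

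The members, the gene lists and the tests were chosen with earlier results of these data known. The genes named are the up to 15 called genes each way with the largest differences at 35 °C (brighter mean of at least 8, arrays of the strains not overlapping), up to 6 per list by adjusted p and all members of 7 lists (the Met4 complex, the 4 sulfur lists, G1 and Start, and SCF). To these were added up to 10 each way that were called in the interaction and not at 25 °C, or at both temperatures without an interaction, and 10 with opposite calls. These added genes also needed a brighter mean of at least 8. Other genes named were chosen after their values were seen, apart from the cell type markers. These were *CDC48*, *HSP12*, *RRN3*, *RPL15B*, *RFA1*, *RPA135*, *PGM1*, *CAR1*, *DAL1*, *SOH1* and members of the runs of neighbours.

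The alternatives were the 35 °C arrays alone, centred medians, quantile normalisation, dim genes left out, the replicate number as a block, mean or all probe sets, another prior, each array left out and, added after seeing the data, a crossed block.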

Additional observations from a re-analysis of the deposited data

Results flagged for a closer look

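The 16 named genes here were picked because the strain difference was called in opposite directions at 35 °C and 25 °C and the interaction was called. The called interaction is thus part of the choice and not a further result. The interaction was towards met30-6 for *FMP16* (3.31 ± 0.27), *YGR174W-A* (2.71 ± 0.13), *SPG4* (2.25 ± 0.24), *EGO4* (2.18 ± 0.08), *GRE2* (1.79 ± 0.10), *ARO9* (1.70 ± 0.09), *QCR10* (1.60 ± 0.11), *IRC4* (1.55 ± 0.16), *SDH2* (1.39 ± 0.09), *HSP26* (1.36 ± 0.07), *SDH4* (1.02 ± 0.09) and *LEU2* (1.02 ± 0.09), as log2 values ± SE. It was towards PY1 for *CIN5* (−2.03 ± 0.12), *ATO3* (−1.71 ± 0.15), *AAC3* (−1.25 ± 0.09) and *IME1* (−0.75 ± 0.09). *FMP16* had the largest of these values. *QCR10*, *SDH2* and *SDH4* are genes of the respiratory chain.

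The probe sets without a gene name were not part of the comparison. Of these 218, limma called 144 at 35 °C (66.1%), 89 higher and 55 lower in met30-6, and 22 and 13 by at least 2-fold. The share called among named genes was 66.7%.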

How the results depend on the processing

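Over the 17 alternatives, the numbers of genes called higher and lower at 35 °C, in all and at least 2-fold, and in the interaction stayed within 1.5 times the reported ones. Without single arrays, where the lone array of a group was assumed to vary like the other groups, the counts at 35 °C ran from 1502 to 1946 higher and from 1456 to 1841 lower. At 25 °C they ran from 201 to 408 higher and from 162 to 281 lower, and with quantile normalisation 534 were lower there. The share of calls that were higher was 51%, and 57.6% with array medians centred (2173 higher and 1600 lower), 49.5% with quantile normalisation, and 47.9% to 53.9% without single arrays. It was 47.9% without PY1 35 °C replicate 1, where the median difference of all genes was −0.0055, and 49.6% without met30-6 35 °C replicate 1. With the replicate number as a block 1777 were higher and 1705 lower at 35 °C, with the crossed block, added after seeing the data, 1875 and 1773. The deviations of same-numbered arrays from their group means correlated at −0.137 between the strains at 35 °C and at −0.17 to 0.118 over all group pairs. With 2 arrays per group these values cannot show whether arrays of the same number shared a batch. Neither block moved a count above by over 1.5 times. Of 381 named genes 354 were called, 334 of them in all alternatives and 20 not in all, and of the 27 not called 16 were called in some. Of 96 list counts at 35 °C 31 moved by over 1.5 times in some alternative. The median difference changed sign with quantile normalisation for the respiratory chain, hexose transport, phosphate, cell wall and meiosis lists, and with centred medians for the serine and MATalpha lists. Of the medians that kept their sign with quantile normalisation, some shrank and some grew in size. That of the proteasome list went from 0.51 to 0.28, and that of heat shock chaperones from 0.50 to 0.30. For thiol redox it went from 0.55 to 0.36, and for the citric acid cycle from 0.41 to 0.24. Some lower lists fell further, with ribosomal proteins going from −0.20 to −0.40 and histones from −0.26 to −0.50. Purine synthesis went from −0.25 to −0.47, and other amino acid synthesis from −0.42 to −0.59. Among higher lists, that of aryl alcohol dehydrogenases rose from 1.20 to 1.31. The causes were not tested. The median SD within the groups at 35 °C was 0.251 for genes with a brighter mean under 8 and 0.0548 for the others.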
